A study of Arabidopsis thaliana with 12 samples.

Results

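Leaf RNA of the pGlcT2 overexpressor was compared with leaf RNA of the *glct2* knock-out, the lines with the highest and the lowest *pGlcT2* transcript level of the series. The comparison took 8 of the 12 libraries, 4 of the overexpressor and 4 of the knock-out, and all genes with at least 1 FPKM (fragments per kilobase of transcript, scaled to the mapped fragments of the library) in at least 4 of these 8 libraries, which were 18044 of the 32954 genes in the deposited table. The overexpressor is line #5, in which the 35S promoter of cauliflower mosaic virus drives the *pGlcT2* coding sequence broadly across tissues. The knock-out *glct2* is SALK_052078, with a T-DNA in the first intron of *pGlcT2*. Both are *Arabidopsis thaliana* Col-0 and each genotype is a single line. The study's text states in one place that the overexpression lines were raised on the *glct2* line and elsewhere names that background for the complemented line alone, so whether the overexpressor also carries the T-DNA is not settled here. Plants of both genotypes grew for 24 days in short days and then for 10 to 12 days in continuous light of 100 to 120 µmol quanta m-2 s-1, and 4 biological replicates were harvested from each.

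Starch is laid down in leaf chloroplasts in the light and is broken down at night to maltose and glucose, which leave the plastid through carriers of the inner envelope. pGlcT2 is a glucose carrier of that membrane. The transitory starch pool thus depends on enzymes of synthesis and degradation and on envelope carriers for sugars, sugar phosphates and ATP, and sugar supply in turn is known to act on photosynthesis genes, pigments and hormone responses. The study set carbohydrate and photosynthesis genes of each mutant against the wild type in continuous light, and here the overexpressor and the knock-out are set against each other.

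*pGlcT2* (*At1g05030*, TAIR10 chr1:1438048-1441933, minus strand) is the gene that both lines were built on, and its first intron holds the T-DNA of the knock-out. RefSeq (TAIR10.1) places that intron of 90 bases at chr1:1441127-1441216 on the minus strand, and it is shown because the insertion that defines the knock-out is reported within it. It reads 5′ to 3′, with the splice site bases in capitals, as
pGlcT2 intron 1: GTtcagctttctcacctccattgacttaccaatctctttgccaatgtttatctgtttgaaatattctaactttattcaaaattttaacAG

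The targeted gene was at 193, 180.3, 215 and 237 FPKM in the 4 overexpressor libraries, against 2.65, 3.00, 3.89 and 2.83 FPKM in the 4 knock-out libraries. All overexpressor libraries lay far above all knock-out libraries, and the ratio of the means was 66.7 (log2 fold change 5.66, SE 0.11, adjusted p = 1.9e-08). All log2 fold changes here are overexpressor minus knock-out on the log2(FPKM + 1) scale, which understates the change of genes with low levels, and adjusted p-values come from limma with the Benjamini-Hochberg method over all genes tested. Genes said to rise or fall were higher or lower in the overexpressor than in the knock-out, whichever line differed from the wild type. A single number in parentheses after a gene's name is its log2 fold change, and libraries named after "without" were left out one at a time. The wild-type libraries had 8.26 to 10.1 FPKM. The values for *pGlcT2* follow the genotype labels in each of the 8 libraries. The FPKM of the knock-out is summed over the gene model, and whether its reads come from intact transcripts was not tested.

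Between 17448191 and 22477845 reads per overexpressor library and between 18471068 and 22418179 reads per knock-out library were counted, as recovered from the FPKM steps. Over the genes tested, libraries of the overexpressor correlated with each other at Pearson's r of 0.962 to 0.988, those of the knock-out at 0.980 to 0.991, and libraries of different genotypes at 0.927 to 0.968. These coefficients are across 18044 genes of the same tables, which are not independent replicates. Overexpressor replicate 2 lay closest to the knock-out libraries (0.954 to 0.968) and overexpressor replicate 4 farthest from them (0.927 to 0.939). In addition, 60.9% of the genes had a larger SD in the overexpressor.

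Of the genes tested, 5422 (30.0%) passed an adjusted p of 0.05 in limma and are called here. With 1 line per genotype, the p-values measure the spread between plants of these lines. 2508 genes (13.9%) were higher in the overexpressor and 2914 (16.1%) were lower, and the median absolute log2 fold change of the called genes was 0.47. A log2 fold change of at least 1 in size was reached by 292 of the genes that rose and 465 of those that fell. In 5866 genes (32.5%) the 4 libraries of one genotype lay all above or all below those of the other, and 4870 of these were called. The median log2 fold change over all genes tested was 0.0027. In bulk leaf RNA, a change in the cells that make a transcript and a change in the RNA per cell cannot be told apart.

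**Figure D1:**
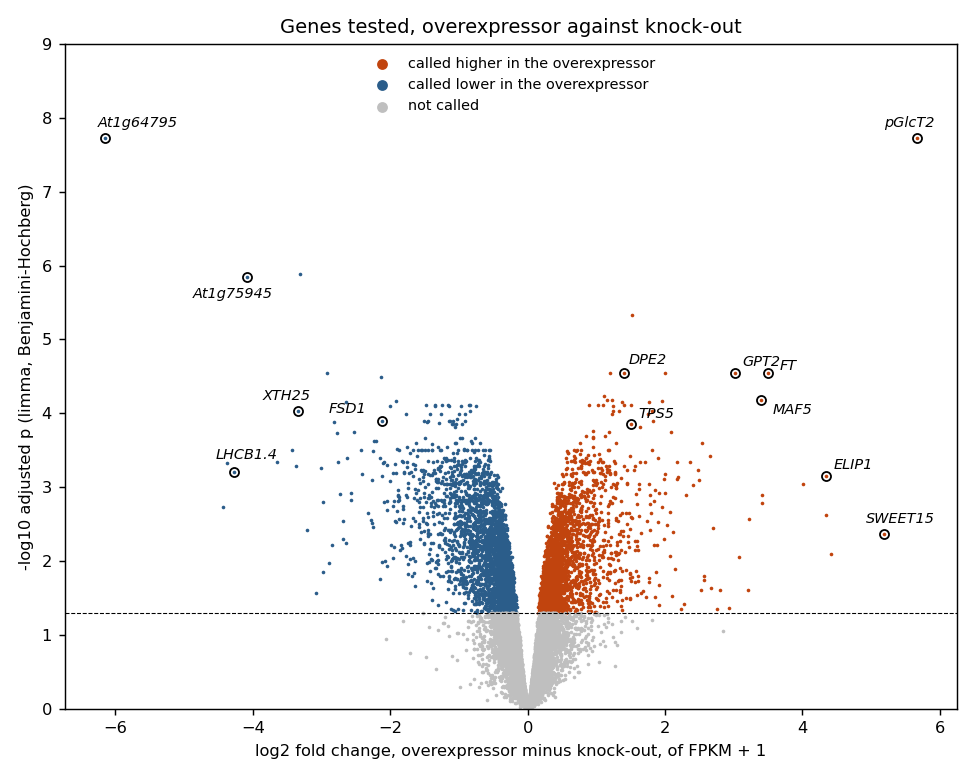
Each point is 1 of the 18044 genes tested, with the log2 fold change (overexpressor minus knock-out, FPKM + 1) on the x axis and −log10 of limma's adjusted p on the y axis; the dashed line marks an adjusted p of 0.05. *pGlcT2* lies at the far right with a log2 fold change of 5.66 and *At1g64795* at the far left with -6.15, and 2508 genes are called higher and 2914 lower.

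The 10 largest rises apart from *pGlcT2* were chosen among called genes without overlap between the genotypes, as were the 10 largest falls. Some of them passed the filter only through the genotype in which they were high, with under 1 FPKM in every library of the other. These were *SWEET15* among the rises, and *At1g64795*, *At1g75945*, *XTH25* and an unannotated transcript among the falls. Their entry into the test thus rests on that genotype alone. *FT* (1.22 FPKM) and *MAF5* (2.01 FPKM) reached 1 FPKM in only 1 knock-out library, and *At1g66100* (6.98 FPKM) in only 1 overexpressor library. *At1g15125* was under 1 FPKM in overexpressor replicate 4 (0.640 FPKM). They would not have passed on the lower genotype alone, nor would any later gene with under 1 FPKM in a library of that genotype. *SWEET15*, an exporter of sucrose across the plasma membrane that is known from senescing leaves, was at 48.9, 6.19, 144 and 282 FPKM in the overexpressor libraries, against 0.538, 0.873, 0.606 and 0.854 FPKM in the knock-out libraries (log2 fold change 5.18, SE 0.94, adjusted p = 0.0043). Replicate 2 was the lowest of the overexpressor libraries, which spanned a wide range. *At2g37870*, annotated as a bifunctional inhibitor/lipid-transfer protein, followed the same order of libraries, with 130.5, 9.53, 223 and 343 FPKM in the overexpressor and 2.66, 3.25, 3.75 and 5.87 FPKM in the knock-out (log2 fold change 4.42, SE 0.93, adjusted p = 0.008). *ELIP1*, an early light-induced protein of the thylakoid known to be made in excess light, reached 115, 68.5, 210.4 and 537 FPKM in the overexpressor, against 6.92, 8.601, 6.70 and 8.10 FPKM in the knock-out (log2 fold change 4.35, SE 0.52, adjusted p = 0.00071). Again replicate 2 was the lowest and replicate 4 the highest of the overexpressor libraries. The related *ELIP2* did not reach the filter, at up to 2.27 FPKM in the overexpressor and up to 1.06 FPKM in the knock-out.

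The remaining large rises were *At4g33550* (4.35), *At3g53980* (4.01), *FT* (3.504), *HIPP24* (3.41), which encodes a heavy metal-associated isoprenylated protein, *MAF5* (3.40) and the non-specific lipid-transfer proteins *LTP4* (3.42) and *LTP3* (3.22), with adjusted p between 2.9e-05 and 0.0027. *LTP4* and *LTP3* are neighbouring genes of similar sequence, so reads may be divided between them. *LTP4* reached 1348, 252, 1530.2 and 1158 FPKM in the overexpressor libraries, against 91.0, 82.7, 75.3 and 78.3 FPKM in the knock-out libraries. *LTP3* reached 1035, 307, 1448 and 2439.7 FPKM in the overexpressor libraries, against 129, 117, 95.2 and 100.6 FPKM in the knock-out libraries. In both, overexpressor replicate 2 stood closest to the knock-out. In limma voom on the reads recovered from the FPKM steps, 3 of the 10 were no longer called, *SWEET15* (adjusted p = 0.094), *At2g37870* (adjusted p = 0.084) and *At4g33550* (adjusted p = 0.068).

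**Figure D2:**
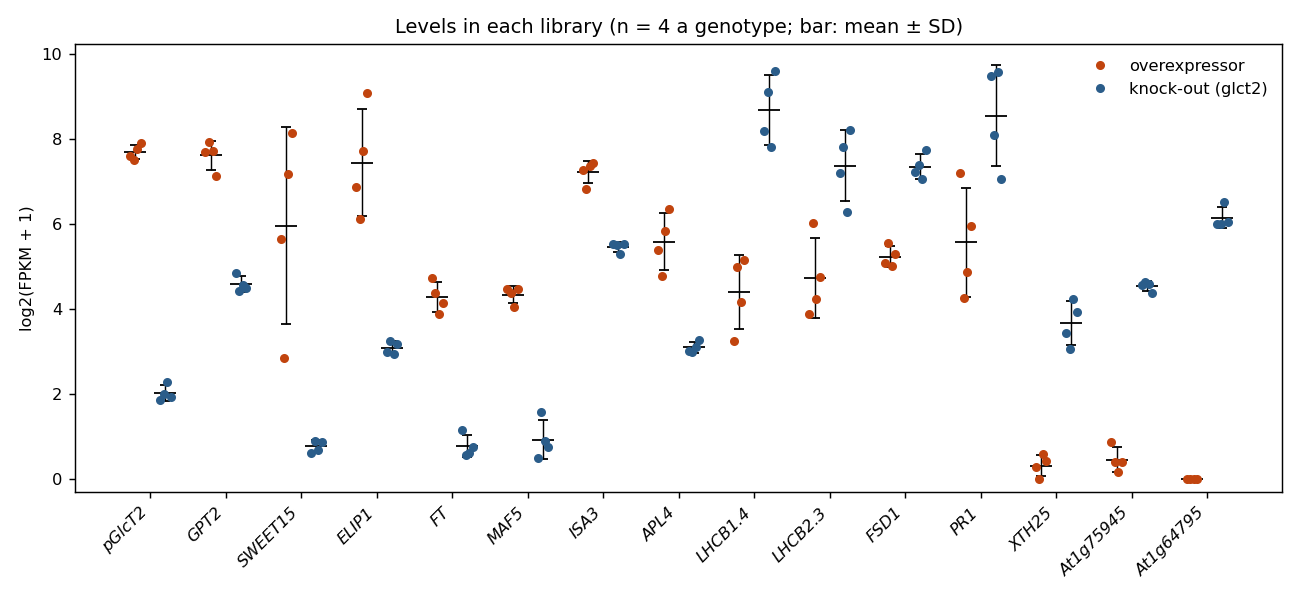
Points are log2(FPKM + 1) in single libraries of the overexpressor (orange, left in each pair) and the knock-out (blue, right), and bars are the mean ± SD of 4 libraries. *FT* and *MAF5* are tight and well apart, at 13.7 to 25.4 FPKM and 15.6 to 21.4 FPKM in the overexpressor against at most 1.22 and 2.01 FPKM in the knock-out, whereas *SWEET15* spans 6.19 to 282 FPKM within the overexpressor.

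Among the largest falls, some transcripts were present in the knock-out and almost missing in the overexpressor. *At1g64795* (TAIR10 chr1:24082579-24082848, plus strand) had no read in any overexpressor library, against 63.5, 63.5, 91.1 and 65.1 FPKM in the knock-out libraries. With 1159 reads in the knock-out, and with 3 reads summed over the 4 overexpressor libraries as the floor, it was at least 387-fold lower in the overexpressor (adjusted p = 1.9e-08). The wild-type libraries held 3 reads in all. This gene lies inside *ILA* (*At1g64790*) on the opposite strand, and since the strand setting of the counting is not given in the sources used here, its reads cannot be assigned to one strand with certainty. *ILA*, looked up after the values were seen, rose, with 22.4, 21.1, 20.2 and 17.8 FPKM in the overexpressor and 16.1, 16.8, 13.3 and 16.1 FPKM in the knock-out (log2 fold change 0.36, SE 0.09, adjusted p = 0.017). *At1g75945* had 0.831, 0.324, 0.120 and 0.328 FPKM in the overexpressor and 22.7, 23.8, 23.1 and 19.7 FPKM in the knock-out (log2 fold change -4.08, SE 0.14, adjusted p = 1.4e-06). An unannotated transcript at TAIR10 chr5:14087960-14090049 had 0.407, 0.143, 0.396 and 0.145 FPKM in the overexpressor and 12.3, 11.5, 10.1 and 12.8 FPKM in the knock-out (log2 fold change -3.32, SE 0.11, adjusted p = 1.3e-06). In the wild type these transcripts lay at 0 to 0.647 FPKM (*At1g75945*) and 0.264 to 3.23 FPKM (the unannotated transcript), so for these 3 genes the knock-out libraries were the high ones.

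*At1g66100*, a probable thionin, an antimicrobial peptide, was at 0.858, 6.98, 0.723 and 0.508 FPKM in the overexpressor, against 52.7, 44.7, 58.9 and 47.1 FPKM in the knock-out (log2 fold change -4.37, SE 0.47, adjusted p = 0.00047). *XTH25*, a probable xyloglucan endotransglucosylase of the cell wall, was at 0.216, 0, 0.513 and 0.340 FPKM in the overexpressor and 9.77, 7.38, 17.8 and 14.2 FPKM in the knock-out (log2 fold change -3.34, SE 0.24, adjusted p = 9.3e-05). The lectin-like *LLP* (-3.43), *PCR1* (-3.37), a plant cadmium resistance protein, the HAD-type acid phosphatase *At5g44020* (-3.65) and *At1g15125* (-4.43) also fell, with adjusted p between 0.00031 and 0.0018. The tenth was *LHCB1.4*, described with the antenna.

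Of the 19 other plastid envelope carriers on the list, all passed the filter, 5 rose and 2 fell, with a median log2 fold change of 0.06 beside 0.0027 over all genes. The shares were thus 26.3% and 10.5% of the list, beside 13.9% and 16.1% of all genes. *GPT2*, which exchanges glucose 6-phosphate for phosphate, made the largest change, at 205, 241, 208 and 139.8 FPKM in the overexpressor libraries, against 27.9, 20.6, 22.8 and 21.6 FPKM in the knock-out libraries (log2 fold change 3.02, SE 0.16, adjusted p = 2.9e-05). Every overexpressor library had at least 5 times the FPKM of the highest knock-out library. Its paralog *GPT1* was at 25.3 ± 0.508 FPKM in the overexpressor and 24.2 ± 2.92 FPKM in the knock-out (SD, n = 4 each; adjusted p = 0.57). The ATP importer *NTT1* rose (1.24 ± 0.16 (SE), adjusted p = 0.0009), while *NTT2* was not called (0.08 ± 0.07 (SE), adjusted p = 0.44). The potassium antiporter *KEA2* rose (0.95 ± 0.08 (SE), adjusted p = 0.00017), and *KEA1* was not called (-0.31 ± 0.12 (SE), adjusted p = 0.079), although it passed with the replicate block (adjusted p = 0.011). The maltose exporter *MEX1* was at 24.6, 22.8, 27.8 and 43.8 FPKM in the overexpressor and 17.7, 17.8, 15.4 and 19.6 FPKM in the knock-out (log2 fold change 0.68, SE 0.18, adjusted p = 0.021). The phosphate carrier *PHT4;1* also rose (0.32 ± 0.09 (SE), adjusted p = 0.031).

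One of the carriers that fell was *PPT2*, which takes up phosphoenolpyruvate, at 4.16, 9.72, 4.38 and 5.41 FPKM in the overexpressor and 17.1, 23.2, 16.2 and 24.2 FPKM in the knock-out (log2 fold change -1.66, SE 0.23, adjusted p = 0.0014). The other was *TPT*, the triose phosphate exporter that supplies sucrose synthesis in the light, at 330.5, 345, 301 and 290.0 FPKM in the overexpressor and 453, 522, 387 and 546 FPKM in the knock-out (log2 fold change -0.58, SE 0.13, adjusted p = 0.0091). The genotypes did not overlap in either gene. The other glucose carrier of the envelope, *pGlcT*, was at 70.6 ± 2.33 FPKM in the overexpressor and 68.3 ± 8.83 FPKM in the knock-out (log2 fold change 0.06, SE 0.09, adjusted p = 0.68). The sucrose carrier *pSuT* was at 34.1 ± 2.94 FPKM in the overexpressor and 36.3 ± 6.63 FPKM in the knock-out (log2 fold change -0.07, SE 0.13, adjusted p = 0.69; SD, n = 4 each in both). Neither passed the test. The log2 fold changes of the other carriers that were not called, *BASS2* (0.25), *DIT1* (-0.03), *DIT2.1* (-0.16), *PHT2;1* (-0.11), *PLGG1* (-0.23), *PPT1* (0.17) and *XPT* (-0.03), had adjusted p between 0.08 and 0.9. The call of *MEX1* was lost without replicate 1, 2 or 3 of the knock-out (adjusted p 0.05 to 0.058). That of *PHT4;1* was lost without replicate 3 or 4 of the overexpressor or 1, 2 or 3 of the knock-out (adjusted p 0.059 to 0.085). The count of carriers that rose was 3 without replicate 1, 2 or 3 of the knock-out.

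Starch genes rose as a group in the overexpressor. Of the 17 genes of starch synthesis, all tested, 12 rose and none fell by the same test, and of the 20 genes of starch degradation, all tested, 15 rose and none fell. Their median log2 fold changes were 0.55 and 0.78. The genes that rose thus made up 70.6% and 75.0% of these lists, beside 13.9% of all genes tested. All lists here were chosen with earlier results of these data known, so their shares are descriptions without a test. Leaving out any one library gave 12 rises in synthesis and 13 to 16 in degradation, and a fall in 1 gene of synthesis was called only without overexpressor replicate 2 and with library quality weights. In these and all later lists for which limma made 0 calls in one direction, the count in that direction was also 0 at an unadjusted p under 0.05 and in limma voom, apart from the marker lists at the end.

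In synthesis, the large subunits of ADP-glucose pyrophosphorylase, which makes the glucosyl donor, differed most. *APL4* was at 41.2, 26.3, 55.6 and 80.9 FPKM in the overexpressor libraries, against 7.07, 7.002, 7.70 and 8.67 FPKM in the knock-out libraries (log2 fold change 2.49, SE 0.28, adjusted p = 0.00059). *APL3* was at 235, 165, 238 and 271 FPKM in the overexpressor and 91.1, 72.8, 77.7 and 74.9 FPKM in the knock-out (log2 fold change 1.49, SE 0.15, adjusted p = 0.00038). Neither overlapped between genotypes, and the leaf-type large subunit *APL1* was not called (-0.23 ± 0.12 (SE), adjusted p = 0.17). *APL2* (0.76) and the small subunit *APS1* (0.45) rose by less. The granule-bound synthase *GBSS1*, which makes amylose, was at 228, 281, 215 and 153 FPKM in the overexpressor and 88.8, 76.3, 89.4 and 97.0 FPKM in the knock-out (log2 fold change 1.28, SE 0.17, adjusted p = 0.001). Among the soluble synthases *SS3* rose (0.55), whereas *SS1* (0.25 ± 0.09 (SE), adjusted p = 0.076), *SS2* (0.26 ± 0.10 (SE), adjusted p = 0.068) and *SS4* (0.18 ± 0.10 (SE), adjusted p = 0.19) were not called. The branching enzymes *SBE2.1* (1.21) and *SBE2.2* (1.19), the debranching isoamylases *ISA1* (0.44) and *ISA2* (0.96), the plastidial phosphoglucomutase *PGM1* (0.41) and *At5g39790* (0.78) also rose, with adjusted p between 0.00021 and 0.015. The plastidial phosphoglucose isomerase *PGI1* was not called (0.10 ± 0.10 (SE), adjusted p = 0.48).

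In degradation, the rises ran from the enzymes that open the granule to those that use the maltose in the cytosol. Glucan, water dikinase *GWD1*, which phosphorylates the granule surface, was at 183, 139, 219.8 and 240.0 FPKM in the overexpressor libraries, against 75.8, 69.4, 59.8 and 75.5 FPKM in the knock-out libraries (log2 fold change 1.44, SE 0.16, adjusted p = 0.00059). The phosphoglucan dikinase *PWD* (0.87) and the phosphatases *SEX4* (1.29), *LSF2* (0.47) and the related *LSF1* (0.36) rose too. The debranching enzyme *ISA3* was at 152, 113, 162 and 173 FPKM in the overexpressor and 44.9, 44.6, 37.9 and 45.4 FPKM in the knock-out (log2 fold change 1.76, SE 0.13, adjusted p = 0.0001). The lowest overexpressor value of *ISA3* (113 FPKM) lay far above the highest knock-out value (45.4 FPKM). Limit dextrinase *LDA* was not called (0.16 ± 0.09 (SE), adjusted p = 0.22).

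The amylases differed among themselves. *BAM5*, a β-amylase found outside the plastid, was at 108, 376, 177 and 166 FPKM in the overexpressor, with replicate 2 the highest library, and 60.4, 48.0, 47.0 and 43.2 FPKM in the knock-out (log2 fold change 1.89, SE 0.32, adjusted p = 0.003). *BAM1* (0.83), *BAM6* (0.74), *AMY2* (0.45) and the plastidial α-amylase *AMY3* (0.84) rose. *BAM3*, the main β-amylase of night-time breakdown, was not called at 397, 434, 341 and 284 FPKM in the overexpressor and 354, 310.3, 272 and 271 FPKM in the knock-out (log2 fold change 0.26, SE 0.15, adjusted p = 0.22). *BAM2*, *BAM4* and *AMY1* were not called either, at log2 fold changes of 0.07, 0.19 and 0.68 (adjusted p = 0.71, 0.074 and 0.18). The glucanotransferase *DPE2*, which takes up maltose in the cytosol, was at 193, 177, 197 and 172 FPKM in the overexpressor and 72.2, 68.0, 63.8 and 74.2 FPKM in the knock-out (log2 fold change 1.397, SE 0.08, adjusted p = 2.9e-05). Its plastidial counterpart *DPE1* rose by 0.67. The glucan phosphorylases *PHS2* of the cytosol (1.398) and *PHS1* of the plastid (1.06) rose as well. The call of *BAM1* was lost without replicate 3 of the overexpressor (adjusted p = 0.05). That of *LSF2* was lost without replicate 1 or 3 of the overexpressor or 1 or 3 of the knock-out (adjusted p 0.05 to 0.054).

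**Figure D3:**
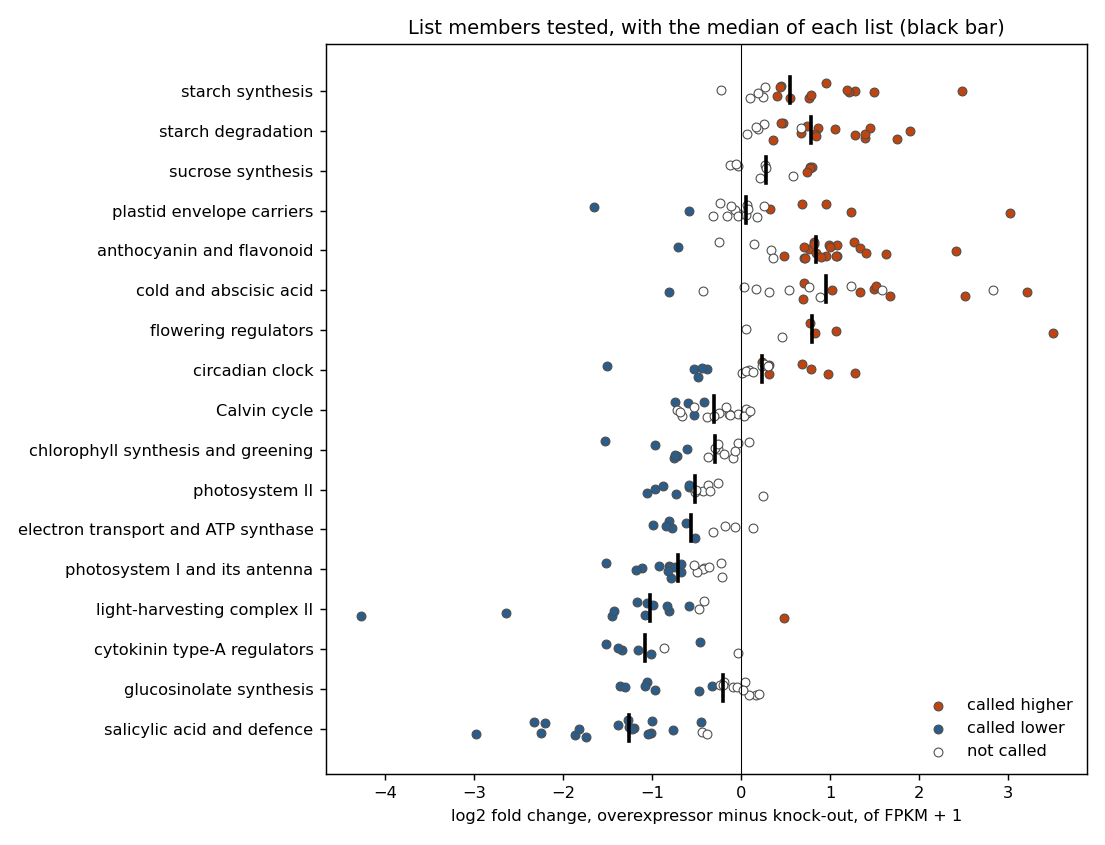
Each point is a list member that passed the filter, placed by its log2 fold change (overexpressor minus knock-out, FPKM + 1) and coloured by its call, and black bars are list medians. The starch lists lie right of 0 with medians of 0.55 and 0.78, and the antenna of photosystem II and the salicylic acid list lie left of 0 with medians of -1.03 and -1.26.

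Of 13 genes of sucrose synthesis, 11 passed the filter, 4 rose (36.4%, beside 13.9% of all genes) and none fell, with a median of 0.27. Those 4 were the sucrose phosphate synthases *SPS1F* (0.77 ± 0.15 (SE), adjusted p = 0.0062) and *SPS2F* (0.80 ± 0.21 (SE), adjusted p = 0.02), the UDP-glucose pyrophosphorylase *UGP1* (0.74 ± 0.08 (SE), adjusted p = 0.00056) and the sucrose phosphate phosphatase *At3g52340* (0.77 ± 0.10 (SE), adjusted p = 0.00089). *SPS1F*, the major leaf isoform, was at 121, 95.2, 144 and 165 FPKM in the overexpressor libraries, against 81.8, 76.7, 68.5 and 73.5 FPKM in the knock-out libraries, without overlap. Not called were *SPS4F* (0.59), *At2g35840* (0.26), *SPP3A* (0.27), the cytosolic fructose bisphosphatase *CYFBP* (-0.13), *UGP2* (-0.04), *F2KP* (-0.06) and the cytosolic isomerase *CPGI* (0.21), with adjusted p between 0.067 and 0.81. *SPS4F* passed with the replicate block (adjusted p = 0.018), and *SPS2F* lost its call without replicate 3 of the overexpressor or 1 of the knock-out (adjusted p 0.055 to 0.057).

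Sugar carriers outside the plastid moved both ways, with 6 rises and 5 falls among the 20 of 22 that passed the filter. These were 30% and 25%, beside 13.9% and 16.1% of all genes. Beside *SWEET15*, the exporter *SWEET13* was at 34.9, 30.2, 38.0 and 38.9 FPKM in the overexpressor and 10.2, 12.3, 8.28 and 12.7 FPKM in the knock-out (log2 fold change 1.63, SE 0.13, adjusted p = 0.00015). The tonoplast sugar importer *TMT2* was at 43.9, 37.2, 53.6 and 63.6 FPKM in the overexpressor and 19.7, 19.3, 17.8 and 21.5 FPKM in the knock-out (log2 fold change 1.27, SE 0.15, adjusted p = 0.00065). The hexose importer *STP1*, known to be repressed by sugars, fell to 10.1, 16.4, 12.0 and 9.76 FPKM in the overexpressor, against 31.0, 33.1, 27.7 and 30.8 FPKM in the knock-out (log2 fold change -1.30, SE 0.14, adjusted p = 0.00055). None of these 3 overlapped between genotypes.

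Among invertases, sucrose synthases and hexokinases, 3 of the 10 tested (of 11) rose and 1 fell (30% and 10%, beside 13.9% and 16.1% of all genes). The cell wall invertase *CWINV1* fell (-1.63 ± 0.22 (SE), adjusted p = 0.0012), and the hexokinase *HXK2* (0.88 ± 0.12 (SE), adjusted p = 0.0013), the vacuolar invertase *VI1* (0.78 ± 0.14 (SE), adjusted p = 0.0038) and the sucrose synthase *SUS3* (1.34 ± 0.37 (SE), adjusted p = 0.024) rose. The glucose sensor *HXK1* was not called (0.17). Of the trehalose genes, 12 of 14 were tested, 5 rose and 3 fell (41.7% and 25%, beside the same shares of all genes). *TPS5*, a trehalose phosphate synthase-like protein, was at 60.7, 49.3, 65.2 and 69.5 FPKM in the overexpressor and 20.9, 20.53, 17.7 and 24.2 FPKM in the knock-out (log2 fold change 1.51, SE 0.12, adjusted p = 0.00014). The phosphatases *TPPE* (0.96) and *TPPG* (0.80) rose while *TPPA* fell (-0.995). The synthase *TPS1* was not called (-0.02). The call of *CWINV1* was joined by another fall without knock-out replicate 2, and that of *SUS3* was lost without replicate 3 of the overexpressor or 1, 2, 3 or 4 of the knock-out (adjusted p 0.051 to 0.068).

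Genes known to be induced by sugar starvation were tested in all 21 members, and 10 fell and 3 rose, with a median of -0.18. These were 47.6% and 14.3%, beside 16.1% and 13.9% of all genes. *DIN10*, a raffinose synthase-like gene named for its induction in darkness, was at 3.41, 2.89, 3.73 and 2.05 FPKM in the overexpressor libraries, against 11.6, 13.6, 6.38 and 7.13 FPKM in the knock-out libraries (log2 fold change -1.37, SE 0.23, adjusted p = 0.0031). *TPS11*, of the same class as *TPS5*, was at 2.196, 2.097, 2.60 and 2.96 FPKM in the overexpressor and 7.45, 7.30, 7.64 and 6.67 FPKM in the knock-out (log2 fold change -1.26, SE 0.09, adjusted p = 0.0001). The β-xylosidase *BXL1* fell as well (-1.66 ± 0.40 (SE), adjusted p = 0.015). *BGLU30*, a β-glucosidase of the same list, went the other way, at 4.25, 7.06, 9.69 and 8.99 FPKM in the overexpressor and 0.0444, 1.06, 1.05 and 0.0380 FPKM in the knock-out (log2 fold change 2.49, SE 0.31, adjusted p = 0.0008). Wild-type libraries had 2.60 to 7.10 FPKM of *BGLU30*. Among members chosen for mention after their values were seen, here and on the later lists, *ASN1*, the asparagine synthetase often used as a starvation marker, was not called (0.55). Without overexpressor replicate 2, 5 genes of the list rose.

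The genes called in the 4 lists of thylakoid complexes were lower in the overexpressor, with 1 exception. Of 15 genes of light-harvesting complex II, 14 passed the filter, 11 fell and 1 rose (median -1.03). Of photosystem I with its antenna, 11 of 18 fell and none rose (median -0.71). Photosystem II had 6 falls among 13 genes (median -0.52), and electron transport with the ATP synthase had 6 among 10 (median -0.57), again without a rise. These shares of 78.6%, 61.1%, 46.2% and 60.0% stand beside 16.1% of all genes tested.

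*LHCB1.4*, a chlorophyll-binding protein of the major antenna, was at 8.59, 30.6, 17.0 and 34.9 FPKM in the overexpressor libraries, against 289.8, 546, 223 and 772 FPKM in the knock-out libraries (log2 fold change -4.27, SE 0.49, adjusted p = 0.00062). *LHCB2.3* was at 13.7, 64.3, 17.8 and 26.1 FPKM in the overexpressor and 147, 224, 76.4 and 293 FPKM in the knock-out (log2 fold change -2.65, SE 0.51, adjusted p = 0.0057). In both, the knock-out replicates 1 and 3 were lower than replicates 2 and 4. *LHCB1.3*, the member of this list with the highest FPKM, was at 3351, 3844, 3739.9 and 3687 FPKM in the overexpressor and 8582, 11259.7, 8173 and 12705 FPKM in the knock-out (log2 fold change -1.45, SE 0.26, adjusted p = 0.0041). *LHCB2.2* fell as well (-1.43 ± 0.30 (SE), adjusted p = 0.008). The member that rose was *LHCB7* (0.48). The *LHCB1* genes are nearly identical copies, so their reads may be divided between them, and *LHCB1.5* is listed at 0 in every library. The call of *LHCB1.3* was lost with no filter (adjusted p = 0.22) and after quantile normalization (adjusted p = 0.057). The count of falls on the list was 6 without replicate 2 of the knock-out, 7 without replicate 1 or 3 of the overexpressor or 4 of the knock-out, and 6 with no filter on low values.

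In photosystem I, the subunit *PSAN* was at 210.0, 332, 181 and 195 FPKM in the overexpressor libraries, against 582, 768, 440.4 and 857 FPKM in the knock-out libraries (log2 fold change -1.52, SE 0.25, adjusted p = 0.0027). *PSAH2*, a subunit at which the mobile antenna docks, fell as well (-1.18 ± 0.23 (SE), adjusted p = 0.0059), as did the ferredoxin-docking *PSAD2* (-1.11 ± 0.22 (SE), adjusted p = 0.0065) and the plastocyanin-docking *PSAF* (-0.92 ± 0.24 (SE), adjusted p = 0.018). Replicate 2 was the highest overexpressor library in each of these 4 genes, and for *PSAF* it overlapped with knock-out replicate 3. In photosystem II, the oxygen-evolving proteins *PSBQ2* (-1.06 ± 0.17 (SE), adjusted p = 0.0022), *PSBQ1* (-0.88 ± 0.23 (SE), adjusted p = 0.02) and *PSBP1* (-0.73 ± 0.20 (SE), adjusted p = 0.025) and the small subunit *PSBTN* (-0.97 ± 0.23 (SE), adjusted p = 0.013) fell. *PSBS*, the sensor of energy quenching, was not called (0.24). Among the electron carriers, ferredoxin *FD2* was at 322, 378, 273 and 321 FPKM in the overexpressor and 667, 751, 416 and 809 FPKM in the knock-out (log2 fold change -0.99, SE 0.21, adjusted p = 0.0076). *At2g26500* (-0.84) and the plastocyanins *PETE2* (-0.81) and *PETE1* (-0.78) fell too. The call of *PSAF* was lost without replicate 3 of the overexpressor or 2 of the knock-out (adjusted p = 0.054). That of *PSBQ1* was lost without replicate 3 of the overexpressor or 2 or 4 of the knock-out (adjusted p 0.052 to 0.059). That of *PSBP1* was lost without replicate 1, 3 or 4 of the overexpressor or 1, 2 or 4 of the knock-out (adjusted p 0.052 to 0.073) and with no filter (adjusted p = 0.082). That of *PETE2* was lost without replicate 3 of the overexpressor or 1, 2 or 4 of the knock-out (adjusted p 0.051 to 0.067) and with no filter (adjusted p = 0.063). The falls in photosystem II numbered 2 without replicate 3 of the overexpressor or 2 or 4 of the knock-out, 3 without replicate 1 of the overexpressor or 1 of the knock-out, and 3 with no filter, and those in electron transport 3 without replicate 3 of the overexpressor or 1, 2 or 4 of the knock-out.

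In the Calvin cycle 4 of 19 genes fell and none rose (21.1% of the list beside 16.1% of all genes, median -0.30). They were the redox regulator *CP12-2* (-0.60 ± 0.14 (SE), adjusted p = 0.013), the glyceraldehyde phosphate dehydrogenases *GAPA2* (-0.75 ± 0.22 (SE), adjusted p = 0.031) and *GAPA1* (-0.53 ± 0.15 (SE), adjusted p = 0.031), and the epimerase *RPE* (-0.42 ± 0.13 (SE), adjusted p = 0.036). The small subunits of Rubisco had log2 fold changes between -0.72 and -0.39 and were not called. Of 11 photorespiration genes tested (of 12), 1 was called, a rise (9.09%, beside 13.9% of all genes). It was the glycine decarboxylase *GLDP1*, at 845, 676, 679.8 and 865 FPKM in the overexpressor and 534, 539, 321 and 512 FPKM in the knock-out (log2 fold change 0.71, SE 0.19, adjusted p = 0.021). The falls in the Calvin cycle numbered 1 without replicate 3 or 4 of the overexpressor or 1, 2 or 4 of the knock-out, 2 without replicate 1 of the overexpressor, 7 without replicate 2 of the overexpressor, and 1 with no filter. The call of *GAPA2* was lost without replicate 1, 3 or 4 of the overexpressor or 1, 2 or 4 of the knock-out (adjusted p 0.052 to 0.086) and with no filter (adjusted p = 0.054). That of *GAPA1* was lost without replicate 3 or 4 of the overexpressor or 1, 2 or 4 of the knock-out (adjusted p 0.061 to 0.089), with no filter (adjusted p = 0.087) and after quantile normalization (adjusted p = 0.069). That of *RPE* was lost without replicate 1, 3 or 4 of the overexpressor or 1, 2 or 4 of the knock-out (adjusted p 0.053 to 0.099) and with no filter (adjusted p = 0.052). That of *GLDP1* was lost without replicate 1 of the overexpressor (adjusted p = 0.056).

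Of 16 genes of chlorophyll synthesis and greening, 15 were tested and 6 fell, with none higher by the test (40% lower, beside 16.1% of all genes, median -0.29). *HEMA1*, the glutamyl-tRNA reductase that opens the pathway, was at 15.7, 21.1, 17.1 and 20.9 FPKM in the overexpressor libraries, against 50.3, 59.9, 40.2 and 76.9 FPKM in the knock-out libraries (log2 fold change -1.53, SE 0.18, adjusted p = 0.00073). The protochlorophyllide reductases *PORB* (-0.97 ± 0.17 (SE), adjusted p = 0.0032) and *PORA* (-0.75 ± 0.23 (SE), adjusted p = 0.037) and the methyltransferase *CHLM* (-0.76 ± 0.16 (SE), adjusted p = 0.0071) fell. The greening factors *GLK1* (-0.26) and *GLK2* (-0.19) were not called. *GUN4*, and on later lists *F3H* and *MYC2*, are listed at or near 0 in all 8 libraries, and since the treatment of overlapping genes in the counting is not given in the sources used here, no level is read from these 3. The call of *PORA* was lost without replicate 1 or 4 of the overexpressor or 1, 2 or 4 of the knock-out (adjusted p 0.06 to 0.092) and with no filter (adjusted p = 0.058).

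Within the excess light and redox list, 4 genes rose and 3 fell among the 16 tested of 18 (25% and 18.8%, beside 13.9% and 16.1% of all genes). *FSD1*, the iron superoxide dismutase of the chloroplast, was at 32.7, 45.9, 31.3 and 38.1 FPKM in the overexpressor libraries, against 148, 165, 131 and 214 FPKM in the knock-out libraries (log2 fold change -2.12, SE 0.16, adjusted p = 0.00013). The 4 overexpressor libraries lay far below the 4 knock-out libraries. The alternative oxidase *AOX1D* rose (1.17 ± 0.25 (SE), adjusted p = 0.0092) and the catalase *CAT3* fell (-0.61 ± 0.13 (SE), adjusted p = 0.0082). Of 4 ferritin and iron-sulfur genes, 2 fell (50%, beside 16.1% of all genes). They were the ferritin *FER4* (-0.87 ± 0.21 (SE), adjusted p = 0.014) and *NEET* (-2.15 ± 0.55 (SE), adjusted p = 0.017), the call of the second being lost without replicate 3 of the overexpressor (adjusted p = 0.051). The rises on the redox list numbered 2 without replicate 3 of the overexpressor or 1 or 3 of the knock-out.

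Anthocyanin and flavonoid genes rose: 20 of the 25 tested, of 27 listed, were higher in the overexpressor and 1 was lower (80.0% and 4.00%, beside 13.9% and 16.1% of all genes, median 0.84). *MYB90* (PAP2), a MYB activator of anthocyanin synthesis, was at 31.1, 32.3, 25.9 and 73.2 FPKM in the overexpressor libraries, against 7.92, 5.35, 7.93 and 4.25 FPKM in the knock-out libraries (log2 fold change 2.41, SE 0.31, adjusted p = 0.00093). *MYB75* (PAP1), its sucrose-inducible relative, was at 87.7, 98.7, 73.2 and 103 FPKM in the overexpressor and 30.2, 19.7, 34.9 and 30.8 FPKM in the knock-out (log2 fold change 1.63, SE 0.17, adjusted p = 0.00046). No overexpressor library overlapped with the knock-out for either factor. *MYB111*, which acts on flavonol synthesis, rose (1.404 ± 0.15 (SE), adjusted p = 0.00052), as did the flavonoid 3′-hydroxylase *F3'H* (1.34 ± 0.31 (SE), adjusted p = 0.012). The enzymes from *CHS* (1.08) and *CHI* (1.27), which open the pathway, to the late glucosyltransferase *UF3GT* (1.07) were called higher. The WD40 partner *TTG1* fell (-0.71). Leaving out any one library gave 17 to 19 rises.

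Cold and abscisic acid genes had 9 rises and 1 fall among 20 tested of 22 (45% and 5%, beside 13.9% and 16.1% of all genes, median 0.95). The dehydrin *RAB18* was at 166, 32.6, 471 and 1109.8 FPKM in the overexpressor libraries, against 22.2, 25.2, 20.48 and 29.4 FPKM in the knock-out libraries (log2 fold change 3.21, SE 0.89, adjusted p = 0.025). The phosphatase *HAI1*, a negative regulator of abscisic acid signalling, was at 17.3, 7.91, 44.7 and 135 FPKM in the overexpressor and 3.68, 5.64, 4.58 and 4.45 FPKM in the knock-out (log2 fold change 2.52, SE 0.70, adjusted p = 0.025). In both, overexpressor replicate 2 was just above the knock-out range and replicate 4 was the highest. *RD29A* (1.67 ± 0.47 (SE), adjusted p = 0.025) and *HAI2* (1.52 ± 0.38 (SE), adjusted p = 0.016) rose as well. The mean deviation of the list from its 8-library mean was 0.09, -0.48, 0.93 and 1.59 in overexpressor replicates 1 to 4, and -0.74, -0.48, -0.53 and -0.38 in knock-out replicates 1 to 4 (log2 scale). The count of rises was 1 without replicate 3 of the overexpressor or 1 or 2 of the knock-out, 2 without replicate 3 of the knock-out, 15 without replicate 2 of the overexpressor. The call of *RAB18* was lost without replicate 3 of the overexpressor or 1, 2 or 3 of the knock-out (adjusted p 0.057 to 0.069). That of *HAI1* was lost without replicate 3 of the overexpressor or 1, 2, 3 or 4 of the knock-out (adjusted p 0.051 to 0.067). That of *RD29A* was lost without replicate 3 of the overexpressor or 1, 2 or 3 of the knock-out (adjusted p 0.059 to 0.069).

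**Figure D4:**
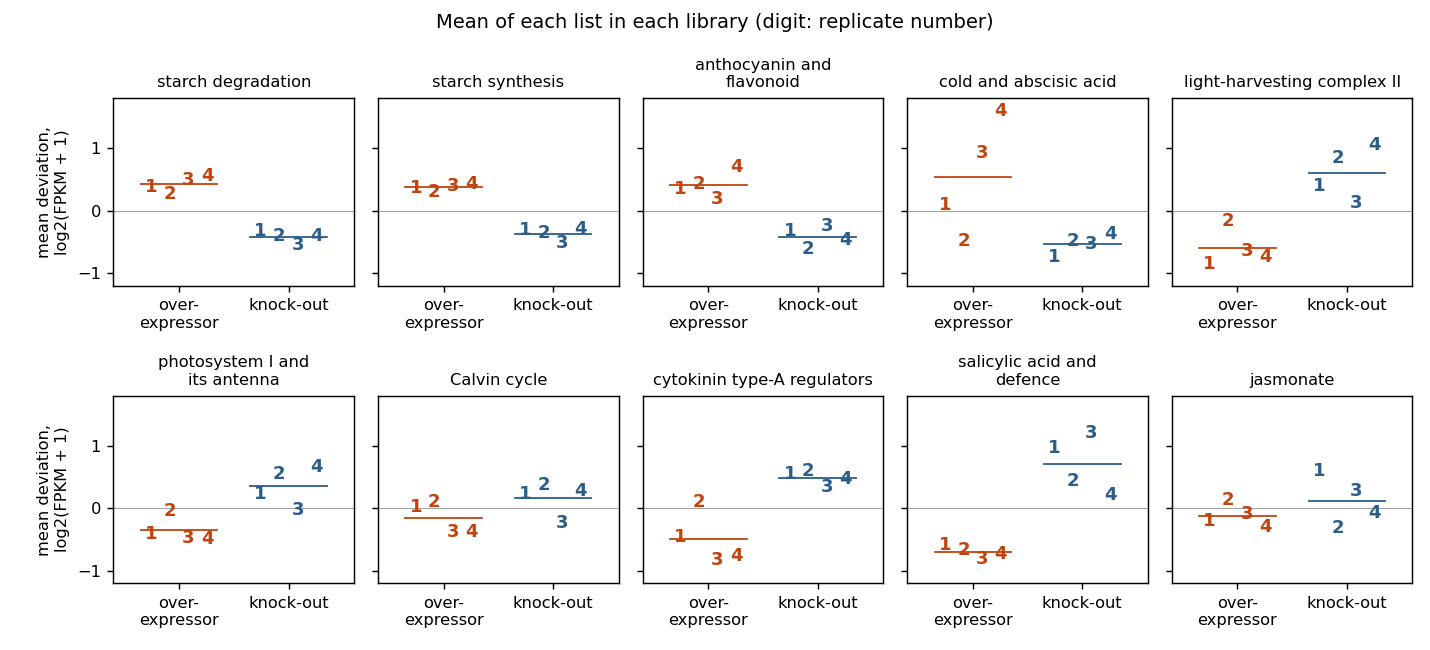
Digits are replicate numbers, placed at the mean over list members of log2(FPKM + 1) after subtracting each gene's 8-library mean, for the overexpressor (orange, left) and the knock-out (blue, right), and lines are genotype means. Starch lists are tight in both genotypes, the cold and abscisic acid list runs from -0.48 to 1.59 within the overexpressor, and the salicylic acid list is high in knock-out replicates 1 (0.96) and 3 (1.201).

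Salicylic acid and defence genes fell. Of 21 listed, 19 were tested, 17 fell and none rose (89.5% lower, beside 16.1% of all genes, median -1.26). *PR1*, the classical marker of salicylic acid responses, was at 145, 18.3, 28.3 and 60.9 FPKM in the overexpressor libraries, against 709, 271, 753 and 133 FPKM in the knock-out libraries (log2 fold change -2.98, SE 0.71, adjusted p = 0.014). Overexpressor replicate 1 overlapped with knock-out replicate 4. *DLO1*, a salicylic acid hydroxylase, was at 8.15, 5.36, 3.41 and 4.49 FPKM in the overexpressor and 42.2, 22.1, 52.0 and 15.8 FPKM in the knock-out (log2 fold change -2.33, SE 0.36, adjusted p = 0.0022). *ALD1*, which starts pipecolate synthesis, was at 0.406, 0.127, 0 and 0.289 FPKM in the overexpressor and 7.07, 2.77, 10.4 and 1.98 FPKM in the knock-out (log2 fold change -2.25, SE 0.39, adjusted p = 0.0034). *ALD1* passed the filter only through the knock-out libraries. *WRKY38* fell too (-2.21 ± 0.19 (SE), adjusted p = 0.00023), as did the synthesis gene *ICS1* (-1.38) and the immune regulators *EDS1* (-1.002) and *PAD4* (-0.77). Knock-out replicates 1 and 3 were the high libraries for *PR1*, *DLO1* and *ALD1*, and leaving out any one library gave 17 to 18 falls.

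Jasmonate genes showed no common direction, with 2 rises and 2 falls among 17 tested of 20 (11.8% each, beside 13.9% and 16.1% of all genes). *LOX4*, a 13-lipoxygenase, fell (-0.60 ± 0.16 (SE), adjusted p = 0.018). The defensin *PDF1.2B* was at 8.73, 1.06, 0.544 and 0.0827 FPKM in the overexpressor and 67.3, 4.23, 33.6 and 12.8 FPKM in the knock-out (log2 fold change -3.08, SE 0.87, adjusted p = 0.027). The storage protein *VSP2* (1.01 ± 0.30 (SE), adjusted p = 0.033) and the conjugating enzyme *JAR1* (0.26 ± 0.07 (SE), adjusted p = 0.021) rose. The rises numbered 0 without replicate 3 of the overexpressor or 2 or 3 of the knock-out, 1 without replicate 1 or 2 of the overexpressor or 4 of the knock-out, and the falls 1 without replicate 4 of the overexpressor or 1 or 3 of the knock-out. The call of *PDF1.2B* was lost without replicate 3 or 4 of the overexpressor or 1 or 3 of the knock-out (adjusted p 0.059 to 0.071), with library quality weights (adjusted p = 0.054) and in limma voom on recovered reads (adjusted p = 0.11). That of *VSP2* was lost without replicate 2, 3 or 4 of the overexpressor or 2, 3 or 4 of the knock-out (adjusted p 0.059 to 0.09), with no filter (adjusted p = 0.062), with the replicate block (adjusted p = 0.073) and in the fit over all 12 libraries (adjusted p = 0.29). That of *JAR1* was lost without replicate 1 or 3 of the overexpressor or 2 or 3 of the knock-out (adjusted p 0.051 to 0.066) and with the replicate block (adjusted p = 0.054).

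Glucosinolate synthesis had 7 falls and no rise among 17 tested of 18 (41.2% lower, beside 16.1% of all genes, median -0.20). Of the 7, 5 belong to the tryptophan-derived branch or its regulators: *MYB51* at 4.89, 3.74, 4.94 and 4.23 FPKM in the overexpressor libraries, against 14.0, 13.0, 16.4 and 9.30 FPKM in the knock-out libraries (log2 fold change -1.36, SE 0.15, adjusted p = 0.00059), *MYB34* (-0.47), *CYP79B3* (-0.97), *CYP83B1* (-1.09 ± 0.11 (SE), adjusted p = 0.00034) and *CYP81F2* (-1.30 ± 0.16 (SE), adjusted p = 0.00084). The chain-elongation enzyme *MAM3* of the methionine branch fell (-1.06 ± 0.17 (SE), adjusted p = 0.0026), while *MAM1* (0.04) and *CYP79F1* (0.16) of that branch were not called.

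Senescence genes split, with 4 rises and 4 falls among 16 (25% each, beside 13.9% and 16.1% of all genes). The nuclease *BFN1* rose (1.349 ± 0.25 (SE), adjusted p = 0.0043), and the endotransglucosylase *XTH24* (-1.90 ± 0.18 (SE), adjusted p = 0.0003), the factor *WRKY53* (-1.45 ± 0.18 (SE), adjusted p = 0.00092) and the lipase-like immune gene *SAG101* (-0.84 ± 0.11 (SE), adjusted p = 0.00095) fell. The protease *SAG12*, the usual late marker, was not called (-0.58). *PPH*, which removes the phytol chain in chlorophyll breakdown, rose (0.44). The count of rises was 2 without replicate 3 of the overexpressor or 1 or 4 of the knock-out.

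Type-A response regulators, which are induced by cytokinin, had 6 falls among 8 tested of 9 (75%, beside 16.1% of all genes, median -1.09). *ARR4* was at 21.3, 36.2, 12.7 and 12.3 FPKM in the overexpressor libraries, against 60.1, 61.1, 53.1 and 48.3 FPKM in the knock-out libraries (log2 fold change -1.51, SE 0.29, adjusted p = 0.0057). *ARR5* (-1.34 ± 0.17 (SE), adjusted p = 0.00083), *ARR6* (-1.16 ± 0.21 (SE), adjusted p = 0.0038) and *ARR7* (-1.39 ± 0.42 (SE), adjusted p = 0.034) fell too. In *ARR4* and *ARR7*, overexpressor replicate 2 was the highest of the overexpressor libraries. Of 11 genes of wall loosening, 5 fell and 1 rose (45.5% and 9.09%, beside 16.1% and 13.9% of all genes). The endotransglucosylase *XTH4* was at 28.2, 42.0, 35.9 and 29.2 FPKM in the overexpressor and 99.1, 179.6, 104 and 153 FPKM in the knock-out (log2 fold change -1.93, SE 0.21, adjusted p = 0.00048). *XTH6* (-1.82 ± 0.31 (SE), adjusted p = 0.003) and the expansin *EXPA1* (-1.69 ± 0.42 (SE), adjusted p = 0.016) fell, while *XTH31* rose (1.62 ± 0.26 (SE), adjusted p = 0.0024). The call of *ARR7* was lost without replicate 1, 3 or 4 of the overexpressor or 1, 2, 3 or 4 of the knock-out (adjusted p 0.055 to 0.082) and with no filter (adjusted p = 0.055).

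The flowering regulators had 4 rises and no fall among 6 tested of 7 (66.7% higher, beside 13.9% of all genes, median 0.80). *FT*, the mobile florigen made in leaf veins, was at 25.4, 19.9, 13.7 and 16.6 FPKM in the overexpressor libraries, against 1.22, 0.495, 0.544 and 0.683 FPKM in the knock-out libraries (log2 fold change 3.504, SE 0.19, adjusted p = 2.9e-05). The lowest overexpressor library had over 10 times the FPKM of the highest knock-out library. *FT* would not have passed the filter on the knock-out libraries alone. *FUL* (1.07 ± 0.12 (SE), adjusted p = 0.00064) and *SOC1* (0.83 ± 0.10 (SE), adjusted p = 0.00066), MADS-box genes known to act downstream of *FT*, and *SPL9* (0.77 ± 0.12 (SE), adjusted p = 0.0021) rose too, while the repressor *FLC* was not called (0.46). Wild-type libraries had 1.44 to 2.32 FPKM of *FT*. *MAF5* (TAIR10 chr5:25997504-26002619, plus strand), an *FLC*-like MADS-box gene, was at 21.4, 19.6, 15.6 and 21.1 FPKM in the overexpressor and 0.423, 2.01, 0.864 and 0.687 FPKM in the knock-out, with 0.811 to 2.07 FPKM in the wild type. Its neighbours were looked up after the values were seen: *MAF4* rose as well (1.201 ± 0.14 (SE), adjusted p = 0.00066), *MAF3* fell slightly (-0.31 ± 0.08 (SE), adjusted p = 0.021) and *AGL31* was not called (-0.01 ± 0.07 (SE), adjusted p = 0.91). The call of *MAF3* was lost without replicate 1 or 3 of the overexpressor or 2 of the knock-out (adjusted p 0.051 to 0.064).

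Clock genes did not share a direction, with 7 rises and 5 falls among 19 (36.8% and 26.3%, beside 13.9% and 16.1% of all genes, median 0.23). The morning gene *LHY* was at 10.5, 11.6, 10.7 and 13.4 FPKM in the overexpressor libraries, against 29.0, 36.2, 32.7 and 41.6 FPKM in the knock-out libraries (log2 fold change -1.51, SE 0.12, adjusted p = 0.00013). Its partner *CCA1* fell by less (-0.53). The evening genes *ELF4* (1.28 ± 0.16 (SE), adjusted p = 0.00092) and *GI* (0.97 ± 0.12 (SE), adjusted p = 0.00085) rose, as did the pseudo-response regulator *PRR3* (0.69). *LNK1* rose (0.78 ± 0.12 (SE), adjusted p = 0.002) and *LNK2* fell (-0.49). The genotypes did not overlap in *LHY*, *ELF4*, *GI* or *LNK1*.

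Nutrient lists gave mixed counts. Of the nitrogen genes tested, 10.5% rose and 42.1% fell, and of the phosphate genes tested, 31.25% rose and 12.5% fell. Over all genes, 13.9% rose and 16.1% fell. In nitrogen assimilation 8 genes fell and 2 rose among 19 tested of 20, including the nitrate transporter *NRT1.1* (-1.11 ± 0.24 (SE), adjusted p = 0.0094), the cytosolic glutamine synthetase *GLN1;4* (-0.99 ± 0.20 (SE), adjusted p = 0.0062) and the nitrate-responsive repressor *LBD38* (-0.84 ± 0.10 (SE), adjusted p = 0.00063) among the falls and *NRT1.5* (0.89 ± 0.28 (SE), adjusted p = 0.039) among the rises. In phosphate starvation 5 rose and 2 fell among 16 tested of 17. The phosphatase *PS2* was at 34.5, 33.7, 27.8 and 14.9 FPKM in the overexpressor and 8.17, 5.13, 7.29 and 4.95 FPKM in the knock-out (log2 fold change 1.92, SE 0.26, adjusted p = 0.0012). *SPX3* (1.49 ± 0.36 (SE), adjusted p = 0.015) and the ribonuclease *RNS1* (1.46 ± 0.28 (SE), adjusted p = 0.0055) rose, and the noncoding *AT4* fell (-1.42 ± 0.34 (SE), adjusted p = 0.013). Of 22 iron deficiency genes, 19 were tested, 3 rose and 2 fell (15.8% and 10.5%, beside 13.9% and 16.1% of all genes). The transporter *YSL3* (-0.98 ± 0.08 (SE), adjusted p = 0.00021) and the reductase *FRO6* (-0.72 ± 0.22 (SE), adjusted p = 0.036) fell, and *BHLH38* (0.75 ± 0.23 (SE), adjusted p = 0.036) and *At1g47400* (0.85 ± 0.24 (SE), adjusted p = 0.026) rose. The rises in nitrogen assimilation numbered 0 without replicate 3 or 4 of the overexpressor or 1 or 2 of the knock-out, 1 without replicate 1 of the overexpressor or 3 or 4 of the knock-out. The phosphate falls numbered 1 without replicate 1, 3 or 4 of the overexpressor or 1, 2 or 3 of the knock-out, and the iron falls 1 without replicate 3 of the overexpressor or 1, 2 or 4 of the knock-out. The iron rises numbered 0 without replicate 1 of the overexpressor or 1 of the knock-out, 1 without replicate 3 of the overexpressor or 2 or 4 of the knock-out, 8 without replicate 4 of the overexpressor. The call of *NRT1.5* was lost without replicate 1, 3 or 4 of the overexpressor or 1, 2, 3 or 4 of the knock-out (adjusted p 0.065 to 0.1) and with no filter (adjusted p = 0.062). That of *FRO6* was lost without replicate 3 of the overexpressor or 1, 2 or 4 of the knock-out (adjusted p 0.051 to 0.091), with no filter (adjusted p = 0.056) and with the replicate block (adjusted p = 0.075). That of *BHLH38* was lost without replicate 1, 2 or 3 of the overexpressor or 1, 2 or 4 of the knock-out (adjusted p 0.07 to 0.096) and with no filter (adjusted p = 0.056). That of *At1g47400* was lost without replicate 1 or 3 of the overexpressor or 1, 2 or 4 of the knock-out (adjusted p 0.054 to 0.071).

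In the pentose phosphate, glycolysis and organic acid list 3 rose and 3 fell among 16 (18.8% each, beside 13.9% and 16.1% of all genes). The cytosolic malic enzyme *NADP-ME2* (-0.97 ± 0.17 (SE), adjusted p = 0.0041) and the plastidial dehydrogenase *G6PD1* (-0.61 ± 0.08 (SE), adjusted p = 0.00088) fell, and the plastidial enolase *ENO1* (0.45 ± 0.10 (SE), adjusted p = 0.0087) and the dikinase *PPDK* (0.46 ± 0.14 (SE), adjusted p = 0.038) rose. The rises numbered 1 without replicate 1 or 3 of the overexpressor or 1, 2 or 3 of the knock-out. Of 7 heat shock genes tested of 13, *HSP70-4* rose (0.90 ± 0.26 (SE), adjusted p = 0.03) and *HSFA7A* fell (-0.76 ± 0.20 (SE), adjusted p = 0.019), and 6 small heat shock proteins did not reach the filter. Each direction thus held 14.3% of the heat shock genes tested, near the shares of all genes. The heat shock rises numbered 0 without replicate 3 of the overexpressor or 1, 2, 3 or 4 of the knock-out, 2 without replicate 1, 2 or 4 of the overexpressor. The call of *PPDK* was lost without replicate 1, 3 or 4 of the overexpressor or 1, 2, 3 or 4 of the knock-out (adjusted p 0.052 to 0.088) and with no filter (adjusted p = 0.055). That of *HSP70-4* was lost without replicate 3 of the overexpressor or 1, 2, 3 or 4 of the knock-out (adjusted p 0.058 to 0.074). That of *HSFA7A* was lost without replicate 1 or 3 of the overexpressor or 1, 2 or 3 of the knock-out (adjusted p 0.053 to 0.056).

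The labelled tissue is leaf, and markers of other organs were low. Summed over 6 flower organ genes, the level was 2.34 to 7.46 FPKM in the overexpressor libraries and 1.69 to 3.64 FPKM in the knock-out libraries. *AP1*, the 1 member of that list that passed the filter, was not called at 0.684, 1.94, 1.23 and 1.85 FPKM in the overexpressor and 0.536, 0.708, 0.359 and 1.15 FPKM in the knock-out (log2 fold change 0.51, SE 0.21, adjusted p = 0.095), but passed with the replicate block (adjusted p = 0.047) and without overexpressor replicate 1 (adjusted p = 0.034). Its part in the rises of the flowering list was not tested. Of 5 root genes, *PLT1* was at 0 in all 8 libraries, and the 1 tested, *SHR*, which is also expressed in leaf veins, fell (-0.63 ± 0.11 (SE), adjusted p = 0.003). No call was made among 12 genes of dividing cells and the shoot meristem, 8 of guard cells and trichomes and 3 of vascular tissue, where limma's smallest adjusted p belonged to *MCM5* (-0.17 ± 0.07 (SE), adjusted p = 0.087), *KAT1* (0.43 ± 0.17 (SE), adjusted p = 0.083) and *APL* (0.21 ± 0.10 (SE), adjusted p = 0.16). At an unadjusted p under 0.05, 1 gene was higher and 1 lower in each of the first 2 of these lists and 0 in the third, and limma voom called 0 in all 3. Leaving out 1 library gave 1 rise (overexpressor replicate 3) or 1 fall (overexpressor replicate 2 or knock-out replicate 2) in the first list and 1 rise (overexpressor replicate 1) or 3 falls (overexpressor replicate 2) in the second. The meristem markers *WUS* and *CLV3* were at most 0.0798 and 0 FPKM in the overexpressor and were at 0 in the knock-out.

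Of 9 genes often used as references, 3 fell and 1 rose (33.3% and 11.1%, beside 16.1% and 13.9% of all genes). *ACT2* was at 148, 137, 132 and 138 FPKM in the overexpressor and 242, 263, 237 and 235 FPKM in the knock-out (log2 fold change -0.81, SE 0.07, adjusted p = 0.00025). *TUB4* fell likewise (-0.81 ± 0.09 (SE), adjusted p = 0.00062), *UBC9* fell by less (-0.30 ± 0.06 (SE), adjusted p = 0.0061), and *EF1A* rose (0.23 ± 0.07 (SE), adjusted p = 0.038), a call lost without replicate 1, 2 or 3 of the overexpressor or 1, 2, 3 or 4 of the knock-out (adjusted p 0.061 to 0.1), after rescaling without the 50 highest genes (adjusted p = 0.057) and in limma voom on recovered reads (adjusted p = 0.05). *PP2AA3* (0.05), *SAND* (0.09), *TIP41L* (-0.06), *GAPC2* (0.07) and *UBQ10* (-0.22) were not called.

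The 250 bases before the annotated start were read for 17848 of the genes tested from the RefSeq TAIR10.1 sequence, whose gene bounds matched those of the deposited table for 17836 of the 17838 genes compared. The evening element AAAATATCT, searched on both strands, was found before 3.60% of the genes that rose and 2.15% of those that fell, beside 2.53% of all promoters. The G-box CACGTG was found before 9.85% of the genes that rose and 6.48% of those that fell, beside 7.40% of all. The reverse order held for the I-box GATAAG, at 11.9% of the genes that rose and 15.6% of those that fell (all promoters 12.5%), for TATCCA, at 13.3% of the genes that rose and 17.2% of those that fell (all 14.2%), and for the W-box core TTGAC, at 41.9% of the genes that rose and 48.2% of those that fell (all 44.3%). The telo box AAACCCTA was found before 3.24% of the genes that rose and 2.32% of those that fell (all 3.77%). The letters of these 6 motifs do not contain one another, although matches may overlap in a promoter. These shares are descriptions without a test, and a match is not a bound site.

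Promoters of a carrier and a starch enzyme that rose, *GPT2* and *ISA3*, are shown with the evening element in capitals, and promoters of an antenna and a photosystem I gene that fell, *LHCB2.3* and *PSAH2*, with the G-box in capitals. All are on the plus strand and run 5′ to 3′ up to the base before the gene start, at chr1:22824164-22824413 for *GPT2*, chr4:5783659-5783908 for *ISA3*, chr3:10255656-10255905 for *LHCB2.3* and chr1:19454548-19454797 for *PSAH2*.
GPT2: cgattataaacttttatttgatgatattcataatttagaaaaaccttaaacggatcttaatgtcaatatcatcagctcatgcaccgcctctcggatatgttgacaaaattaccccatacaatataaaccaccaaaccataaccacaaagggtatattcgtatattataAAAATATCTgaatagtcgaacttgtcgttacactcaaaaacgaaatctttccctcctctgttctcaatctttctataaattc
ISA3: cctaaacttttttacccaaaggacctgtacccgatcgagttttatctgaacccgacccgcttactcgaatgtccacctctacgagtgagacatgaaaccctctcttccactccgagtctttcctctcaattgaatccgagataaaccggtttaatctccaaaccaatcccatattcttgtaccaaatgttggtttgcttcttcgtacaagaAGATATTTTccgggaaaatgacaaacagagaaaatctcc
LHCB2.3: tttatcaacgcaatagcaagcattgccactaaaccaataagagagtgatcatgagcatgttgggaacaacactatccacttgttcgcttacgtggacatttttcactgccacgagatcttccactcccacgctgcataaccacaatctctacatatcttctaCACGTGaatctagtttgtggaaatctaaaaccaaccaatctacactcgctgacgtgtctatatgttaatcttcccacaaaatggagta
PSAH2: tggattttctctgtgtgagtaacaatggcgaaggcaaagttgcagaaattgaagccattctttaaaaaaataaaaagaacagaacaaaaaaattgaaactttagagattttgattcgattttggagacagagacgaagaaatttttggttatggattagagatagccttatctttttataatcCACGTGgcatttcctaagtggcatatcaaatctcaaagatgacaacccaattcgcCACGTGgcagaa
The element before *ISA3* is on the minus strand and so appears as its reverse complement. Other motifs in these windows are not marked, namely a TATCCA element before *LHCB2.3*, an I-box before *PSAH2* and a W-box core on each strand before *GPT2*. The G-box marked in *LHCB2.3* and *PSAH2* was less frequent before genes that fell (6.48%) than before all genes (7.40%). Of the starch genes that rose, *PWD* and *ISA3* of degradation and *PGM1* of synthesis held the evening element in these windows, and the other starch genes that rose did not.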

How the data were processed

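Leaf RNA of 4 replicates per genotype was sequenced as directional libraries. Per the labels and the study's methods, reads were trimmed with fastp, aligned to TAIR10 with HISAT2 2.0.5 and assembled with StringTie 1.3.3, and the authors deposited FPKM values per gene, which are not counts. The aligner's and counter's strand setting is not given in the sources used here. The 3 columns of authors' means were not used, and the 4 wild-type columns served only for levels named as such and for 1 alternative. Every nonzero FPKM was a whole multiple of the value of 1 read within 0.01 of a step (100% of values), which gave the reads per library. A floor of 3 reads covers counting error only.

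log2(FPKM + 1) of genes with at least 1 FPKM in at least 4 of 8 libraries was fitted by genotype in limma 3.58.1 (R 4.3.3) with a mean-variance trend, two-sided, and p-values were adjusted by the Benjamini-Hochberg method over all 18044 genes. The fit was tested first on simulated reads with a spread between libraries that was assumed and not taken from these data. It called 3 of 67 genes changed by a log2 fold of 0.5, 46 of 67 at 1 and 66 of 66 at 2. Of its 124 calls, 115 were changed genes in the right direction, and the remaining calls were wrong. In a separate run in which all genes were left unchanged, 0 genes were called. Same-numbered replicates of the genotypes deviated together in each of 4 pairs (correlations of 0.19, 0.16, 0.15 and 0.12). The labels give only a replicate number, so whether it pairs the samples is not known. All calls here come from the unblocked fit, and a fit with the replicate block was run beside it. Of the 5422 calls, 4774 recurred in the same direction with the block.

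Genes named are *pGlcT2*, the 10 largest called rises and falls without overlap between genotypes, up to 4 called members of each list with the largest change (in lists with no call, the member of lowest p), and the members of the carrier, starch and sucrose lists. Other genes named were chosen after their values were seen. The members and lists were chosen with earlier results of these data known. Alternatives were 2 other pseudocounts, 2 other filters, 4 scalings, the replicate block, all 12 libraries, library weights, robust variances, limma voom on recovered reads, a minimum log2 fold change of 1 and leaving out each library. Promoters and the intron were read from RefSeq TAIR10.1, and list members without a level above the filter were left out of the tests.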

Additional observations from a re-analysis of the deposited data

Results flagged for a closer look

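Within groups of 4 libraries, 22 of 404 had 1 library that stood apart from the other 3 by Dixon's test at 95% (5.45%, where chance gives about 1 in 20). Knock-out replicate 3 held 8 of them, overexpressor replicate 2 held 6 and overexpressor replicate 4 held 4. In knock-out replicate 3, *At1g64795* was high, at 91.1 FPKM, and *GLDP1* was low, at 321 FPKM. The other 6 genes in that library were all on the starch lists and low, namely *ISA3* (37.9 FPKM), *APL1* (49.3 FPKM), *SS2* (18.3 FPKM), *SBE2.2* (38.5 FPKM), *ISA1* (14.1 FPKM) and *ISA2* (29.1 FPKM). All tested members of the carrier, starch and sucrose lists were screened, but up to 4 of each other list by the rule. Knock-out replicate 3 was the lowest library in the mean deviation of both starch lists (-0.52 in synthesis, -0.54 in degradation). These values were thus not counted as independent. In overexpressor replicate 2, *At1g66100* (6.98 FPKM), *PSAD2* (268 FPKM), *GLN1;4* (1.95 FPKM) and *SS2* (29.9 FPKM) were high, and *SBE2.2* (85.4 FPKM) and *ISA1* (19.1 FPKM) were low. In overexpressor replicate 4, *MYB90* (73.2 FPKM), the flavonoid gene *F3'H* (199.9 FPKM) and *LDA* (21.7 FPKM) were high and *BHLH38* (49.2 FPKM) was low. The remaining values that stood apart were those of *PDF1.2B* in overexpressor replicate 1 (8.73 FPKM), *HSFA7A* in knock-out replicate 4 (2.34 FPKM), *BFN1* in knock-out replicate 2 (1.26 FPKM) and *ARR5* in knock-out replicate 1 (5.37 FPKM). Their causes were not tested.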

How the results depend on the processing

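Counts of genes higher and lower in the overexpressor stayed within 1.5 times of 2508 and 2914 under all alternatives but one, at 2054 to 3326 and 2424 to 3590 under other pseudocounts, filters, scalings, weights and fits, and at 1719 to 2914 and 2149 to 3166 when 1 library was left out. A minimum log2 fold change of 1, which narrows the call by construction, left 292 and 465. Rises made up 46.3% of the calls, 45.1% to 52.0% under the alternatives that kept all 8 libraries, and the median over all genes was at most 0.022 in size. The replicate block gave 2411 and 2824 calls, ended those of *FRO6* (adjusted p = 0.075), *VSP2* (adjusted p = 0.073) and *JAR1* (adjusted p = 0.054), and added *AP1*, *SPS4F* and *KEA1*. It changed no other call among genes named by the rule or looked up beside them (*ILA*, *MAF4*, *MAF3* and *AGL31*). Of the 168 calls of all these genes, 121 held under all 21 alternatives, and 15 of the others were not tested with the filter at 5 FPKM. No filter ended 13, limma voom 5, and leaving out 1 library between 3 (overexpressor replicate 2) and 29 (overexpressor replicate 3), and the cause was not tested. In 144 of 1596 combinations of list and alternative a count moved by more than 1.5 times. With 4 libraries and 1 line per genotype, effects of the genotype and of the line cannot be told apart.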

Other observations

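Beyond the lists, 15 of 20 neighbouring tested genes at TAIR10 chr4:12102135-12222468 were called lower in the overexpressor and none of them higher, with a median log2 fold change of -0.59. This window was chosen after the values were seen, as the one with the most calls in one direction. Of those 15 genes, 14 encode cysteine-rich receptor-like kinases, cell surface proteins many of which are known to respond to pathogens, and the other encodes the aquaporin PIP1-5. Elsewhere on chromosome 4 the next window not overlapping it held at most 10 falls, and on the other chromosomes a window held at most 8 to 10 calls in one direction. These kinases are tandem copies of similar sequence, so reads may be divided between them, and they were not counted as independent.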
